A study of Mus musculus with 14 samples.

Results

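This account describes 36 chaperone genes of the mouse heart: heat shock proteins of the cytosol and of mitochondria, their co-chaperones, the transcription factor Hsf1, and subunits of the chaperonin TRiC. They were found by gene symbol, through the Ensembl identifiers of the count table and GENCODE M21, among 55487 gene rows. All 36 were present, and all 36 passed the filter on low counts, which left 15528 genes. Total RNA of hearts from untreated male C57BL/6 mice was sequenced after removal of ribosomal RNA. The young hearts, from mice of 2 months, comprised 3 of wild type and 3 with the knockout, and the aged hearts, from mice of 15 months, comprised 4 of each. Knockout hearts carried Sqstm1 alleles flanked by loxP sites (Sqstm1fl/fl) and Cre driven by the promoter of Myh6, a myosin gene of heart muscle cells, so the other cells of the organ should keep Sqstm1. The labels do not say whether wild-type mice carried Cre or the floxed alleles. Sqstm1 encodes p62, an autophagy receptor.

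Chaperones bind unfolded or misfolded proteins and help them to fold, or pass them on for degradation. Under heat and other protein stress the factor HSF1 binds heat shock elements in DNA and raises transcription of Hsp70, Hsp40 and Hsp90 genes, while heart muscle keeps high levels of small heat shock proteins without stress. BAG3 joins HSC70 (the product of Hspa8) to the small heat shock protein HSPB8, and cargo bound by this complex is handed to p62 and to autophagosomes. TRiC folds actin and tubulin, and Hsp60 with its lid Hsp10 (Hspd1 and Hspe1) folds proteins inside mitochondria.

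Library totals ranged from 20218992 to 30404416 counts. Levels are given as CPM, counts scaled to a common library total after adjustment by the trimmed mean of M values (TMM). Sqstm1, the deleted gene, stood at 177, 139 and 169 CPM in young wild-type hearts, 15.2, 14.7 and 19.2 in young knockout, 208, 186, 238 and 173 in aged wild-type and 14.6, 36.99, 16.2 and 17.6 in aged knockout. It was lower in every knockout heart than in every wild-type heart of the same age, with a log2 fold change of -3.30 at 2 months and -3.23 at 15 months (edgeR quasi-likelihood test, Benjamini-Hochberg adjusted p = 0.00036 and 6.46e-05). In exact permutation tests of the 2 genotypes (two-sided) p was 0.1 at 2 months and 0.0286 at 15 months. These are the smallest values possible for 3 against 3 and for 4 against 4. Summed cardiac muscle markers (6 genes, among them Myh6 and Tnnt2) were 26076 to 39341 CPM in every library. Wild-type replicate 1 at 2 months stood apart with summed atrial markers (Myl7, Myl4, Sln and Nppa) of 1633 CPM, against at most 217 CPM elsewhere. It also had the highest summed fibroblast (1129 CPM, lowest 281) and fat (9.11 CPM) markers. Myl7 alone was at 638 CPM in that library and at 58.1 CPM in aged knockout replicate 1. It was at 39.7, 15.0 and 26.9 CPM in aged wild-type replicates 1, 2 and 4, and at most 0.482 CPM in every other library. Whether each library held the whole heart, atria included, was not tested. Summed endothelial markers were 232 to 316 CPM in young hearts and 244 to 1024 CPM in aged hearts, highest in knockout replicate 3. Mitochondrial transcripts took 27.5% to 46.0% of the counts, most in aged knockout replicate 1. The part of these differences in the chaperone results was not tested, apart from the fits with the atrial level as a covariate and with single libraries left out. Libraries also differed in how strongly they favoured long transcripts. The length slope of a library is the regression of its log2 CPM, relative to the mean of all libraries, on the log2 exon length of each gene. It was negative in all 6 young libraries (-0.163 to -0.0264) and positive in 6 of 8 aged ones, the exceptions being wild-type replicate 2 (-0.0576) and knockout replicate 1 (-0.0702).

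Heat shock elements are built of alternating GAA and TTC units spaced by pairs of bases. They were searched in RefSeq promoter windows on GRCm38.p6, from 250 bases before to 50 bases after a transcription start, on both strands. Windows were found for 27 of the 36 genes. The motif of 3 units (GAANNTTCNNGAA or TTCNNGAANNTTC) was present in 4 of the 27 genes (14.8%), Hspd1, Hspe1, Hsph1 and Chordc1, against 0.662% of all genes with a window. The motif of 2 units (GAANNTTC or TTCNNGAA), which is contained in the longer one, was present in 18 of the 27 (66.7%) against 17.0% of all genes. A match describes the letters only. The stretches below are shown because these genes carry the 3-unit motif, or because their levels are followed heart by heart below. They run 5′ to 3′ on the strand of the gene, and capitals mark matches to either motif.
Hspe1 (chr1:55088053-55088082, plus strand): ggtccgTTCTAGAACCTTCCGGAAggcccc
Chordc1 (chr9:18292260-18292289, plus strand): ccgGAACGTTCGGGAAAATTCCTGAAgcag
Hsph1 (chr5:149636286-149636315, minus strand): gtaaaatgctgcagaTTCTGGAAAGTTCtc
Hspa1b (chr17:34959209-34959488, minus strand): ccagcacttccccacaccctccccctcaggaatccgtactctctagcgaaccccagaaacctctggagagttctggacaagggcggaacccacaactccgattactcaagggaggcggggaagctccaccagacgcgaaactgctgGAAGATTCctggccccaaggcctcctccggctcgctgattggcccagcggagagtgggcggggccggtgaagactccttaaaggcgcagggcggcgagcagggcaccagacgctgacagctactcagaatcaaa
Dnajb1 (chr8:83607975-83608204, plus strand): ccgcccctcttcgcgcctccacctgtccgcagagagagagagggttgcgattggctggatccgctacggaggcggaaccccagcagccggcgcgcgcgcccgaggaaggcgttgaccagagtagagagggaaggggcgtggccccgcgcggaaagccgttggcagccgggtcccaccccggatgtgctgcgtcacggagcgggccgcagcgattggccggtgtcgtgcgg

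The matches of Hspe1 formed a run of 18 capitals that begins 89 bases before the start, and those of Chordc1 a run of 23 that begins 4 bases before it. In Hsph1 the 3-unit match began 15 bases after the start. Hspa1b carried the 2-unit motif alone, 104 bases before the start, and Dnajb1 carried neither in the stretch shown. Hspe1 and Hspd1 lie head to head on opposite strands, and the Hspe1 window shared 285 bases with a window of Hspd1, so their 3-unit matches are the same letters. The windows of Hspa1a and Hspa1b were identical at 296 of 300 positions (98.7%).

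Per kilobase of exon, and as the mean of the 4 groups, small heat shock proteins led the 36 genes: Cryab at 646 CPM per kb, Hspb7 at 533 and Hspb6 at 258. The constitutive Hsp70 and Hsp90 genes followed, Hspa8 at 193 and Hsp90ab1 at 185 CPM per kb. The heat-inducible Hsp70 genes were lowest, Hspa1b at 0.348 and Hspa1a at 0.344 CPM per kb. The spread between hearts of a group had a median SD of 0.23 log2 CPM over the 36 genes, against 0.31 over all 15528 genes. It was widest for Hspa1a (0.80), Hspa1b (0.73), Hspe1 (0.54), Hsph1 (0.47) and Hsp90aa1 (0.41), and narrowest for Tcp1 (0.11).

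The values of single hearts follow by role, in the order of the replicate numbers, with gene coordinates on GRCm38 from GENCODE M21. Among Hsp70 genes, Hspa8 (ENSMUSG00000015656, chr9:40800984-40810087), the constitutive HSC70 that works with BAG3, stood at 850.1, 1058 and 796 CPM in young wild-type hearts, 622, 988 and 740.2 in young knockout, 952, 909.7, 663 and 870.5 in aged wild-type and 708, 806, 789 and 863 in aged knockout. The groups overlapped in every comparison. Of its 50-base stretches 38.6% occur in other genes, mostly in 1 other locus, so its level is uncertain. Hspa1a (ENSMUSG00000091971, chr17:34969190-34972156), a heat-inducible Hsp70, stood at 2.64, 0.657 and 1.24 CPM in young wild-type hearts, 0.758, 0.886 and 1.37 in young knockout, 0.655, 0.285, 1.49 and 0.553 in aged wild-type and 0.27, 1.01, 1.14 and 0.841 in aged knockout. Its near copy Hspa1b (ENSMUSG00000090877, chr17:34956436-34959238) stood at 2.71, 1.19 and 0.889 CPM in young wild-type hearts, 0.556, 1.24 and 0.768 in young knockout, 0.482, 0.163, 1.23 and 0.442 in aged wild-type and 0.539, 1.01, 1.02 and 0.883 in aged knockout. Both were highest in wild-type replicate 1 at 2 months, and groups overlapped at each age and in each genotype. These are 5 to 68 counts per library for Hspa1a and 4 to 70 for Hspa1b. Of the 50-base stretches in Hspa1b transcripts, 62.3% also occur in Hspa1a, so reads could have been shared or lost between the pair and their levels are uncertain. Hspa4 (ENSMUSG00000020361, chr11:53259814-53300457), a nucleotide exchange factor of the Hsp110 family, stood at 101, 79.2 and 96.03 CPM in young wild-type hearts, 81.5, 115 and 103 in young knockout, 149, 91.6, 128 and 142 in aged wild-type and 91.5, 145, 134 and 154 in aged knockout. Its relative Hsph1 (ENSMUSG00000029657, chr5:149614287-149636376), Hsp110 itself, stood at 23.9, 21.8 and 21.6 CPM in young wild-type hearts, 16.4, 25.9 and 23.2 in young knockout, 40.7, 19.9, 25.1 and 47.4 in aged wild-type and 17.04, 31.7, 34.8 and 40.6 in aged knockout. For both, aged wild-type replicate 2 and aged knockout replicate 1 lay within the range of young hearts, and the other aged hearts lay above most of them.

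J-proteins deliver clients to Hsp70. Dnajb1 (ENSMUSG00000005483, chr8:83608193-83612653), the heat-inducible Hsp40, stood at 22.2, 19.6 and 15.5 CPM in young wild-type hearts, 12.98, 15.2 and 17.02 in young knockout, 9.13, 11.5, 12.8 and 7.48 in aged wild-type and 11.3, 13.98, 7.95 and 7.95 in aged knockout. In wild type all aged hearts were below all young hearts, and in knockout the highest aged heart overlapped the lowest young one. Dnaja4 (ENSMUSG00000032285, chr9:54698873-54716315) stood at 66.8, 69.1 and 74.8 CPM in young wild-type hearts, 66.9, 79.2 and 73.7 in young knockout, 78.6, 65.5, 76.5 and 76.04 in aged wild-type and 68.5, 69.8, 56.98 and 62.3 in aged knockout, and groups overlapped throughout. Of its exon bases 44.1% also belong to exons of Wdr61 on the other strand. Dnaja1 and Dnajb4 ranged from 17.6 to 35.9 CPM and from 46.5 to 92.8 CPM over the 14 hearts.

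Of the Hsp90 genes, the inducible Hsp90aa1 (ENSMUSG00000021270, chr12:110690605-110702728) stood at 64.02, 60.6 and 58.2 CPM in young wild-type hearts, 48.5, 61.4 and 58.99 in young knockout, 101, 46.03, 56.5 and 108 in aged wild-type and 45.7, 62.6, 80.1 and 86.3 in aged knockout. Young hearts were close together, while aged hearts spread to both sides of them. Of its 50-base stretches 47.5% occur in other genes, mostly in 1 other locus, so its level is uncertain too. Stip1 (ENSMUSG00000024966, chr19:7020702-7039967), which links Hsp70 to Hsp90, stood at 57.7, 52.7 and 52.4 CPM in young wild-type hearts, 56.7, 67.9 and 74.5 in young knockout, 64.6, 47.7, 53.5 and 62.9 in aged wild-type and 53.2, 70.2, 49.8 and 67.5 in aged knockout, with overlap in every comparison. The constitutive Hsp90ab1 ranged from 433 to 662 CPM. Among the partners of Hsp90, the immunophilin Fkbp4 ranged from 155 to 233 CPM, St13 from 65.1 to 98.8, Ahsa1, which stimulates the Hsp90 ATPase, from 38.8 to 50.2, and Chordc1 from 17.5 to 32.5. Hsf1 (ENSMUSG00000022556, chr15:76477422-76501913), the regulator of the heat shock response, stood at 15.98, 14.98 and 20.6 CPM in young wild-type hearts, 19.4, 18.7 and 18.4 in young knockout, 22.8, 20.2, 17.99 and 19.8 in aged wild-type and 17.8, 17.6, 21.9 and 16.4 in aged knockout, with overlap in every comparison.

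Small heat shock proteins hold unfolded clients without ATP. Cryab (ENSMUSG00000032060, chr9:50751325-50756636), alpha B crystallin, stood at 768, 818 and 868 CPM in young wild-type hearts, 874, 962 and 1046 in young knockout, 1139.8, 668, 991 and 1015 in aged wild-type and 1086, 1126, 958 and 1179.7 in aged knockout. At 2 months all knockout hearts were above all wild-type hearts, and at 15 months they overlapped. The same held for Hspb6 (ENSMUSG00000036854, chr7:30552178-30555443), at 527, 498 and 489.6 CPM in young wild-type hearts, 565, 678 and 604 in young knockout, 651, 465, 689.8 and 588 in aged wild-type and 632, 761, 558 and 659 in aged knockout. Hspb7 (ENSMUSG00000006221, chr4:141420779-141425311), a small heat shock protein of heart and skeletal muscle, stood at 1008, 1103 and 1591 CPM in young wild-type hearts, 1118, 1384 and 1406 in young knockout, 2095, 1736, 1987 and 1591 in aged wild-type and 1671, 1628, 1317 and 1440.4 in aged knockout, and groups overlapped. Hspb1 (ENSMUSG00000004951, chr5:135887919-135889563) stood at 98.7, 78.2 and 121 CPM in young wild-type hearts, 88.5, 97.7 and 91.5 in young knockout, 98.5, 57.5, 82.4 and 84.1 in aged wild-type and 59.5, 90.3, 82.9 and 72.1 in aged knockout, also with overlap, and 48.8% of its 50-base stretches occur in a pseudogene, so its level is uncertain. Hspb8 (ENSMUSG00000041548, chr5:116408491-116422864), the partner of BAG3, stood at 269, 312 and 492 CPM in young wild-type hearts, 388, 312 and 375 in young knockout, 292, 279.7, 263 and 327 in aged wild-type and 233, 252, 279 and 263 in aged knockout. In knockout all aged hearts were below all young ones. Hspb2 (ENSMUSG00000038086, chr9:50751078-50752354) stood at 38.97, 50.3 and 37.3 CPM in young wild-type hearts, 47.7, 41.8 and 49.2 in young knockout, 32.9, 48.4, 33.8 and 29.7 in aged wild-type and 38.9, 23.9, 21.2 and 31.8 in aged knockout, and the low-level Hspb3 (ENSMUSG00000051456, chr13:113662896-113663676), with which HSPB2 forms a complex in muscle, at 5.04, 6.98 and 3.98 CPM in young wild-type hearts, 8.49, 7.49 and 5.9 in young knockout, 2.93, 4.31, 3.48 and 3.98 in aged wild-type and 4.42, 4.31, 2.11 and 3.74 in aged knockout. For this pair too, aged and young knockout hearts did not overlap, whereas wild-type hearts did. Hspb2 shares 252 exon bases (30.2%) with the far more abundant Cryab on the opposite strand, and the strand setting of the counting is not given in the sources used here, so its counts may hold reads of Cryab. Bag3 (ENSMUSG00000030847, chr7:128523616-128546981) stood at 137, 109 and 147 CPM in young wild-type hearts, 110.4, 162 and 181 in young knockout, 192, 118, 210.2 and 156 in aged wild-type and 139, 244, 185 and 158 in aged knockout, with overlap in every comparison.

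TRiC is a ring chaperonin of cytosolic subunits, of which 8 were measured. Cct4 (ENSMUSG00000007739, chr11:22990519-23003780) stood at 100.1, 141 and 128 CPM in young wild-type hearts, 101, 98.7 and 112 in young knockout, 79.1, 117, 83.4 and 93.1 in aged wild-type and 85.3, 74.5, 75.8 and 81.5 in aged knockout, and Cct5 (ENSMUSG00000022234, chr15:31590800-31601804) at 94.9, 117 and 96.7 CPM in young wild-type hearts, 105, 102 and 112 in young knockout, 81.5, 102, 76.7 and 90.7 in aged wild-type and 82.3, 85.3, 71.6 and 82.96 in aged knockout. For both, all aged knockout hearts were below all young knockout hearts. Cct7 (ENSMUSG00000030007, chr6:85451514-85468475) stood at 79.6, 70.8 and 77.8 CPM in young wild-type hearts, 68.4, 82.8 and 79.5 in young knockout, 79.005, 82.5, 70.5 and 78.8 in aged wild-type and 58.3, 70.02, 65.95 and 74.5 in aged knockout, with overlap throughout. Over the 14 hearts Cct2 ranged from 63.3 to 89.1 CPM, Cct3 from 52.5 to 77.6, Cct6a from 59.96 to 87.6, Cct8 from 50.3 to 80.1 and Tcp1 from 121 to 151. Cct2 was higher in all aged than in all young wild-type hearts.

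In mitochondria, Hspa9, the mitochondrial Hsp70 mortalin, stood at 338, 266 and 305 CPM in young wild-type hearts, 283, 403 and 329.5 in young knockout, 555, 329, 438 and 474 in aged wild-type and 297, 469, 501 and 498 in aged knockout. Hspd1 (ENSMUSG00000025980, chr1:55077835-55088243), Hsp60, stood at 179.6, 146 and 159 CPM in young wild-type hearts, 166, 218 and 175 in young knockout, 288, 156, 241 and 246 in aged wild-type and 164, 244, 269.6 and 292 in aged knockout. For both, aged wild-type replicate 2 and aged knockout replicate 1 lay within the range of young hearts, and the other aged hearts above it. Hspe1 (ENSMUSG00000073676, chr1:55088132-55091307), Hsp10, stood at 76.7, 191 and 128 CPM in young wild-type hearts, 136, 91.5 and 126 in young knockout, 47.9, 67.5, 46.998 and 59.7 in aged wild-type and 107, 51.3, 29.9 and 53.6 in aged knockout. All aged wild-type hearts were below all young ones, and in knockout the aged replicate 1 reached into the young range. Pseudogenes carry 39.7% of the 50-base stretches of Hspd1 and 18.4% of those of Hspe1, so reads of these genes could also have been lost or shared.

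Knockout and wild type were compared to ask whether loss of p62 in heart muscle came with a change in chaperone transcripts. No chaperone passed the threshold at either age. At 2 months 0 of 36 passed, against 0.00644% of all genes (1 of 15528, Sqstm1 itself), and at 15 months 0 of 36 passed, again against 0.00644% (edgeR quasi-likelihood test, lowest Benjamini-Hochberg adjusted p of a chaperone 0.9997 and 0.999). At an unadjusted p under 0.05 there were 0 chaperones at either age, against 3.18% and 3.97% of all genes. After adjustment DESeq2 and limma voom also called 0. Unadjusted, DESeq2 had 1 of 36 at 15 months, beside 692 of 15528 genes. The median log2 fold change of the 36 was 0.05 at 2 months, with 24 above 0, and -0.0038 at 15 months, with 18 above 0, beside medians of -0.0015 and 0.0083 over all genes. The 95% interval lay within 1 log2 unit of 0 for 33 chaperones at 2 months, the exceptions being Hspa1a, Hspa1b and Hspb3, and for 34 at 15 months, the exceptions being Hspa1a and Hspa1b. These intervals are of differences between group means, and their width rests on the spread between the sampled hearts. No label states that hearts of the same group went through the procedure independently. In RNA of heart tissue, fewer cells of a type and less RNA per cell cannot be told apart.

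By role, the 7 small heat shock proteins together with Bag3 had a median log2 difference of 0.17 at 2 months, with 7 of 8 genes above 0, and of -0.05 at 15 months, with 3 of 8 above 0. For Cryab the log2 difference was 0.23 (SE 0.18) at 2 months and 0.19 (SE 0.16) at 15 months, and for Hspb6 it was 0.29 (SE 0.17) and 0.12 (SE 0.15). At 2 months the genotypes did not overlap for Cryab, Hspb6 and Chordc1, all higher in knockout, which is 3 of 36 against 8.15% of all genes. At 15 months they did not overlap for 0 of 36, against 1.99%. The members of the complex that hands cargo to p62 had small differences with either sign. Bag3 was at 0.21 at 2 months (95% interval -0.33 to 0.74) and 0.10 at 15 months (-0.36 to 0.56). Hspb8 was at 0.00 (-0.42 to 0.42) and -0.18 (-0.54 to 0.19), and Hspa8 at -0.20 (-0.62 to 0.21) and -0.10 (-0.46 to 0.26). These bounds exclude a change of 1 log2 unit for all 3 genes at both ages, but leave room for changes within the intervals.

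The genes with the smallest p at 2 months were Stip1 (0.29, SE 0.16), Hspb6 (given above) and Hspb3 (0.46, SE 0.28). At 15 months they were Cct7 (-0.21, SE 0.11), Dnaja4 (-0.20, SE 0.11) and Hspb7 (-0.29, SE 0.17). Averaged over both ages, 0 of 36 chaperones passed in edgeR, against 0.00644% of all genes, and 1 of 36 had an unadjusted p under 0.05, against 3.26%. This was the TRiC subunit Cct4, at -0.24 (SE 0.11), followed by Hspb6 at 0.20 and Cryab at 0.21. Whether the knockout effect differed with age was also tested, and 0 of 36 passed in edgeR, against 0% of all genes, and 0 of 36 had an unadjusted p under 0.05, against 3.72%. DESeq2 and limma voom called 0 after adjustment in both of these comparisons. The smallest p for this difference belonged to Hspa1b (1.47, SE 0.77), Dnaja4 (-0.27, SE 0.17) and Hspb2 (-0.46, SE 0.30). The sign of the knockout effect was the same at both ages for 18 of 36 chaperones, and for 51.1% of all genes.

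**Figure D1:**
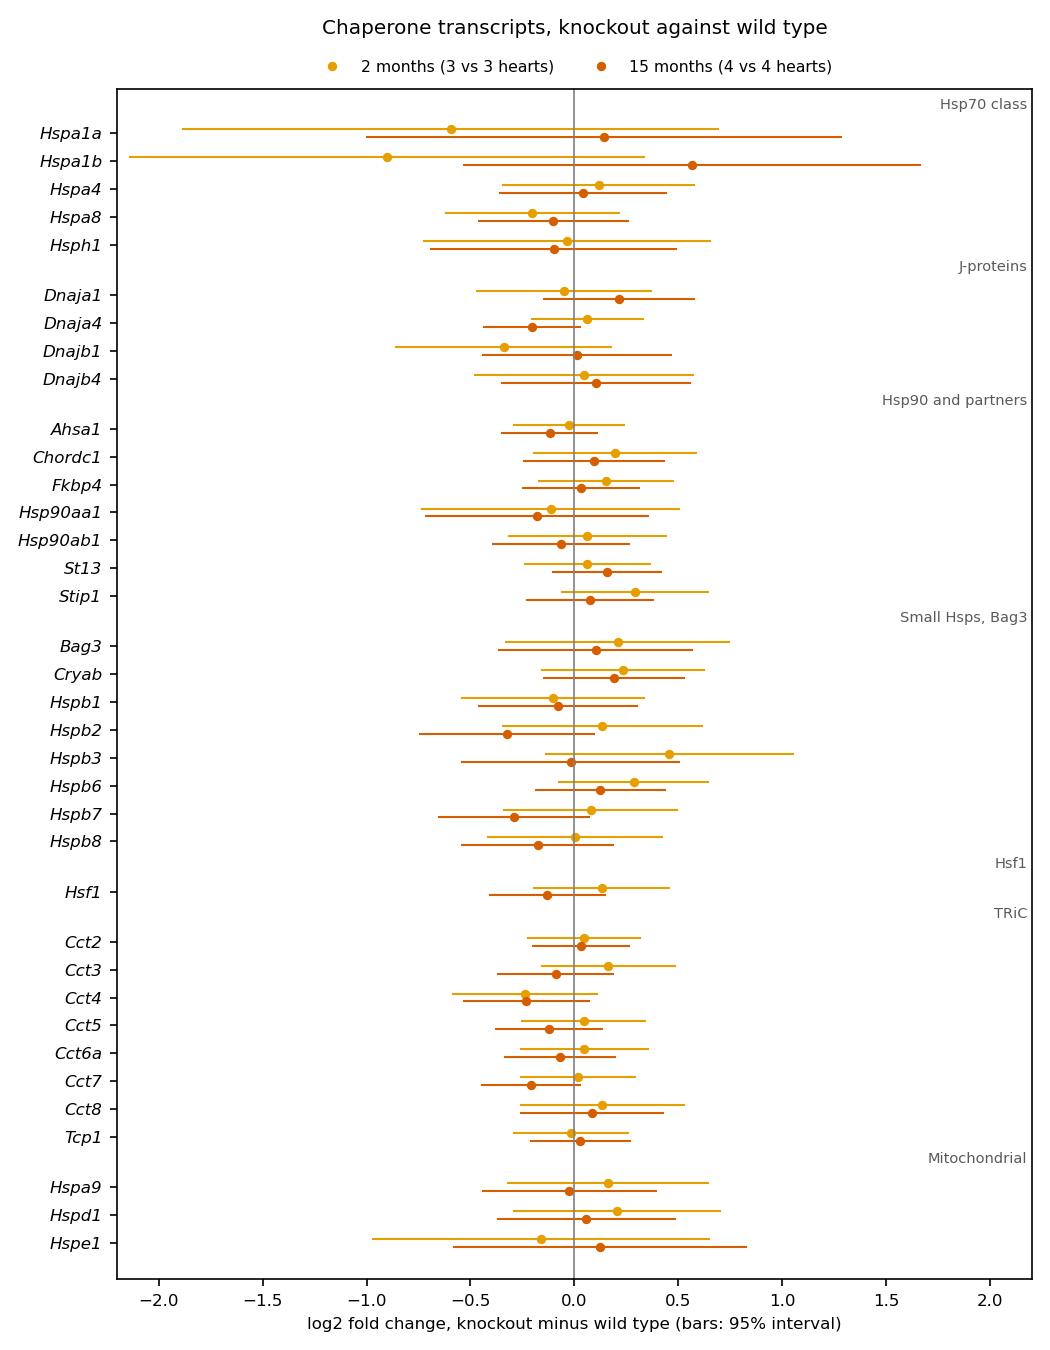
Log2 fold change of each chaperone transcript between knockout and wild-type hearts, at 2 months (3 against 3 hearts, light orange) and 15 months (4 against 4, dark orange), grouped by role; points are edgeR estimates and bars 95% intervals. Estimates lie close to 0 on either side, the widest bars belong to Hspa1a and Hspa1b, and 0 of 36 genes passed the threshold at either age.

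The ages were compared within each genotype, to ask whether chaperone transcripts differed between young and aged hearts. Within wild type 0 of 36 chaperones passed, against 1.04% of all genes, and within knockout 0 of 36, against 2.25% (edgeR quasi-likelihood test, Benjamini-Hochberg adjusted). At an unadjusted p under 0.05 there were 8 in wild type, 4 higher and 4 lower with age, against 23.8% of all genes, and 7 in knockout, all lower with age, against 26.7%. DESeq2 called 3 chaperones in wild type (Dnajb1, Hspb7 and Hspe1), against 7.08% of all genes, and 3 in knockout (Cct5, Hspb2 and Hspb3), against 10.4%. The calls of limma voom were 0, against 0.985%, and 1 (Hspb3), against 3.11%. Closest to the threshold in wild type was Dnajb1, with a log2 fold change of -0.90 (SE 0.23, edgeR adjusted p = 0.0672), then Hspe1 at -1.25 (SE 0.35) and Hspb7 at 0.59 (SE 0.18). In knockout it was Hspb3, at -1.01 (SE 0.26, edgeR adjusted p = 0.055), then Hspb2 at -0.68 (SE 0.21) and Cct5 at -0.40 (SE 0.13). The ages did not overlap for 3 of 36 chaperones in wild type, against 16.2% of all genes, and for 5 of 36 in knockout, against 20.1%. Leaving out aged knockout replicate 1 gave 2 calls in wild type, against 5.1% of all genes, and 4 in knockout, against 22.6%. Leaving out wild-type replicate 1 at 2 months gave 1 in wild type, against 3.19%, and leaving out aged wild-type replicate 2 gave 1 in knockout, against 3.94%.

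The age change had the same sign in both genotypes for 28 of 36 chaperones (77.8%), and for 75.4% of all genes. A comparison of the ages averaged over both genotypes was added after the data were seen. In it 11 of 36 chaperones passed (30.6%), against 23.9% of all genes. Those that rose were 4 of 36, against 10.8% of all genes, and those that fell 7 of 36, against 13.1%. At an unadjusted p under 0.05 there were 13 of 36, against 39.2%. The median log2 change was -0.04 over the 36 and 0.0006 over all genes. Transcripts of the circadian clock and of the cold response differed between the same libraries. Dbp, a clock output gene, stood at 31.4, 30.3 and 71.4 CPM in young wild-type hearts, 24.8, 29.7 and 83.9 in young knockout, 108, 110.4, 127 and 92.5 in aged wild-type and 93.2, 105, 85.9 and 93.6 in aged knockout, higher in every aged heart than in every young heart. Its log2 change was 1.17, that of the clock activator Arntl -0.98 and that of the cold-inducible Rbm3 -0.65 (edgeR adjusted p = 0.0104, 0.0374 and 0.0202), while Ciart, Per1, Per2 and the cold-inducible Cirbp did not pass. Counted in either direction, the ages did not overlap for 506 of 15528 genes and for 0 of 36 chaperones. Among immediate early genes, Fos also passed, at -1.90 (edgeR adjusted p = 0.0447), and Egr1 and Dusp1 did not. What part of the chaperone changes goes with these clock, cold-response and immediate early transcripts was not tested.

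By role, 1 of 5 Hsp70 genes rose, Hspa4, by 0.43 on the log2 scale (SE 0.14, edgeR adjusted p = 0.0414). Its relative Hsph1 had a larger estimate, 0.54 (SE 0.21), and did not pass (edgeR adjusted p = 0.0787). Hspa8 was at -0.04 (95% interval -0.31 to 0.24), and Hspa1a and Hspa1b, at -0.65 and -0.71, had intervals that reached across 0. Of 4 J-proteins, Dnajb1 fell by 0.73 on the log2 scale (SE 0.16, edgeR adjusted p = 0.00932), the smallest p among the 36, while Dnaja1, Dnaja4 and Dnajb4 lay between -0.23 and 0.09. Of 7 Hsp90 genes and partners none passed, with estimates from -0.11 for Fkbp4 to 0.32 for Hsp90aa1. Hsf1 was at 0.10 (95% interval -0.11 to 0.31).

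Small heat shock proteins moved in both directions. Hspb3 fell by 0.77 (SE 0.18, edgeR adjusted p = 0.0127), Hspb2 by 0.45 (SE 0.15, edgeR adjusted p = 0.0407) and Hspb8 by 0.39 (SE 0.13, edgeR adjusted p = 0.0411) on the log2 scale, and Hspb7 rose by 0.40 (SE 0.13, edgeR adjusted p = 0.038). Bag3 was at 0.32, Cryab at 0.20, Hspb6 at 0.16 and Hspb1 at -0.29, and these 4 did not pass. Of 8 TRiC subunits, Cct4 fell by 0.40 (SE 0.11, edgeR adjusted p = 0.0199) and Cct5 by 0.31 (SE 0.09, edgeR adjusted p = 0.0254), and the other 6 lay between -0.16 (Cct6a) and 0.21 (Cct8). The 3 mitochondrial chaperones all passed, beside 23.9% of all genes. Hspa9 and Hspd1 rose by 0.48 (SE 0.15) and 0.45 (SE 0.15), and Hspe1 fell, at -1.10 (SE 0.25), with edgeR adjusted p = 0.0352, 0.0459 and 0.0102.

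**Figure D2:**
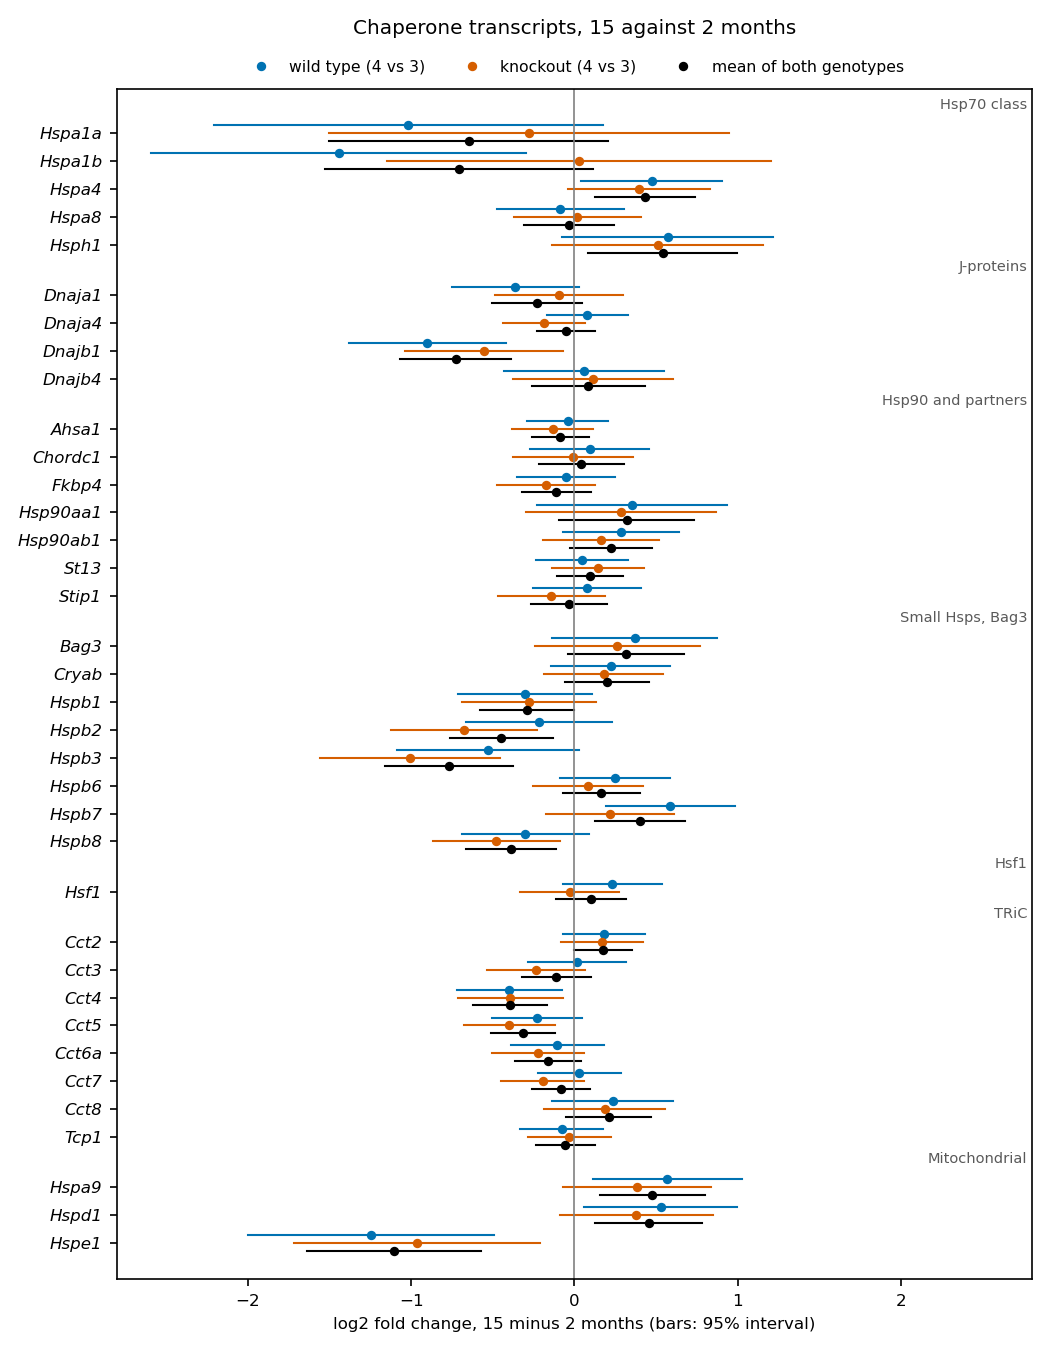
Log2 fold change of each chaperone transcript between 15 and 2 months in wild type (blue), in knockout (orange) and averaged over both genotypes (black), grouped by role; points are edgeR estimates and bars 95% intervals. Blue and orange points lie on the same side of 0 for 28 of 36 genes, and the black bars are clear of 0 for 13, of which 11 passed after adjustment.

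How far these 11 calls held was examined with single libraries left out and with the length slope as a covariate. Each library was left out in turn. Dnajb1, Hspb3 and Hspe1 passed in all 14 such fits, Cct4 in 12, Cct5 in 8, Hspb7 in 5, and Hspa4, Hspa9, Hspb2, Hspb8 and Hspd1 in 4. The count fell to 3 without wild-type replicate 2 or knockout replicate 3 at 2 months, to 4 without knockout replicate 1 at 2 months or without wild-type replicate 1 or 3 at 15 months, to 5 without knockout replicate 2, 3 or 4 at 15 months, and to 6 without wild-type replicate 3 at 2 months or replicate 4 at 15 months. In these 10 fits 9.47% to 19% of all genes were called. With the length slope of each library as a covariate, 160 of all genes were called (1.03%) and 1 chaperone, Hspb1, which fell by 0.72 on the log2 scale. In that fit Hspa4, Hspa9 and Hspd1 were at -0.06, -0.09 and -0.12, and Hspb2 at 0.05, all with the sign turned. Hspe1 went from -1.10 to -0.11, Hspb3 from -0.77 to -0.33, Cct4 from -0.40 to -0.11 and Cct5 from -0.31 to -0.12. Hspb8 was at -0.38, Dnajb1 at -0.65 and Hspb7 at 0.46, and none of these 7 passed.

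Age and the length slope move together in these libraries, so the averaged age change is also given by exon length. The 2 chaperones with exons of up to 1000 bases, Hspb2 and Hspb3, had a median log2 age change of -0.61, beside -0.66 over all 1002 genes of that length. The 4 of 1000 to 2000 bases (Hspe1, Hspb8, Hspb1 and Cryab) had a median of -0.34, beside -0.34. The 16 of 2000 to 4000 bases had 0.07, beside -0.08, the 11 of 4000 to 8000 bases -0.04, beside 0.09, and the 3 longer ones 0.09, beside 0.22.

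**Figure D3:**
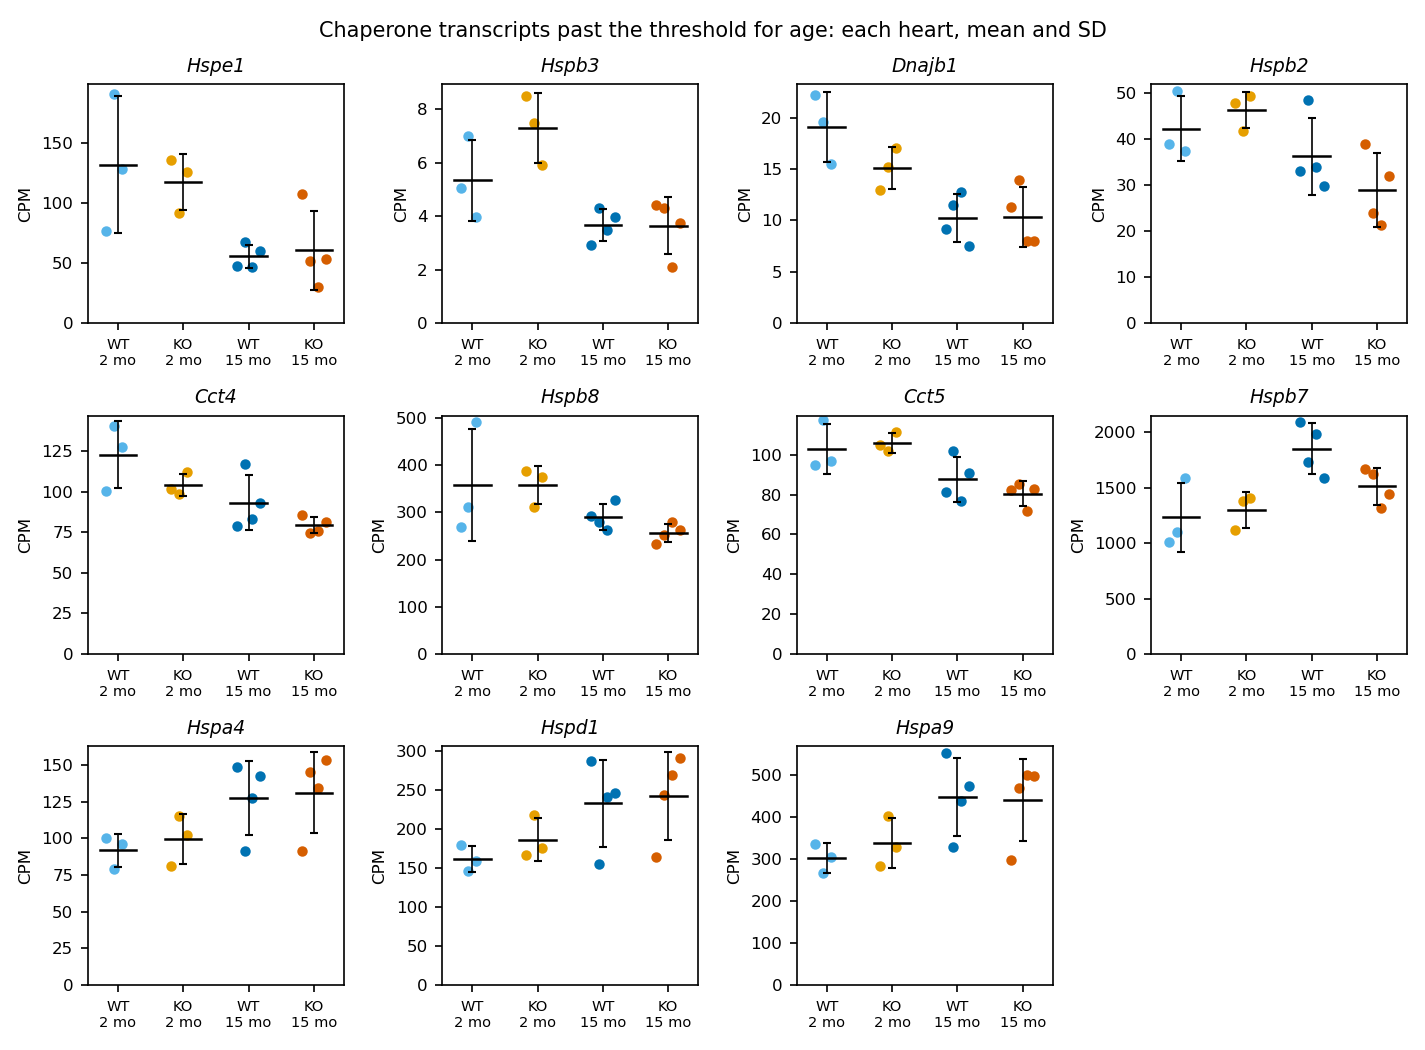
CPM of the 11 chaperone transcripts that passed for age averaged over both genotypes, 1 panel per gene with its own axis from 0; points are hearts, horizontal lines group means and bars SD (n = 3 at 2 months, n = 4 at 15 months). In each panel 1 or more aged hearts reach into the range of the young hearts of either genotype, and in Hspa4, Hspd1 and Hspa9 the lowest aged hearts are wild-type replicate 2 and knockout replicate 1.

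Hspe1 and Hspd1 are neighbours with a common promoter region and form a single machine, and in the averaged comparison their transcripts had opposite signs. The number of Hspe1 counts per Hspd1 count in the same library was 0.427, 1.30 and 0.808 in young wild-type hearts, 0.817, 0.421 and 0.718 in young knockout, 0.167, 0.433, 0.195 and 0.242 in aged wild-type, and 0.655, 0.210, 0.111 and 0.184 in aged knockout. The mean log2 ratio differed between aged and young hearts by -1.66 in wild type and -1.45 in knockout, and the ages overlapped in both genotypes. The pair was chosen after its averaged age changes were seen, so these differences are a description. The 2 aged hearts with the highest ratios, wild-type replicate 2 and knockout replicate 1, were those with a negative length slope. Across the 6 young libraries the log2 ratio and the length slope had Pearson's r = -0.957 (exact permutation p = 0.00278) and Spearman's rho = -0.943 (exact permutation p = 0.0167). Across the 8 aged libraries they had r = -0.965 (exact permutation p = 0.00062) and rho = -0.857 (exact permutation p = 0.0107). Adjusted over these 2 relations by Benjamini-Hochberg, the permutation p-values of r were 0.00278 and 0.00124 and those of rho 0.0167 and 0.0167. Without the 2 libraries farthest from the median slope, r was -0.855 (n = 4) and -0.902 (n = 6). The exons of Hspe1 span 1474 bases and those of Hspd1 2642. The slope is itself a regression on exon length, so the ratio and the slope are not independent measures. The part of exon length in this relation was not tested. The relation of ratio and slope was looked at after the pair was chosen, so it too is a description. Its p-values, adjusted or not, do not allow for either choice.

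**Figure D4:**
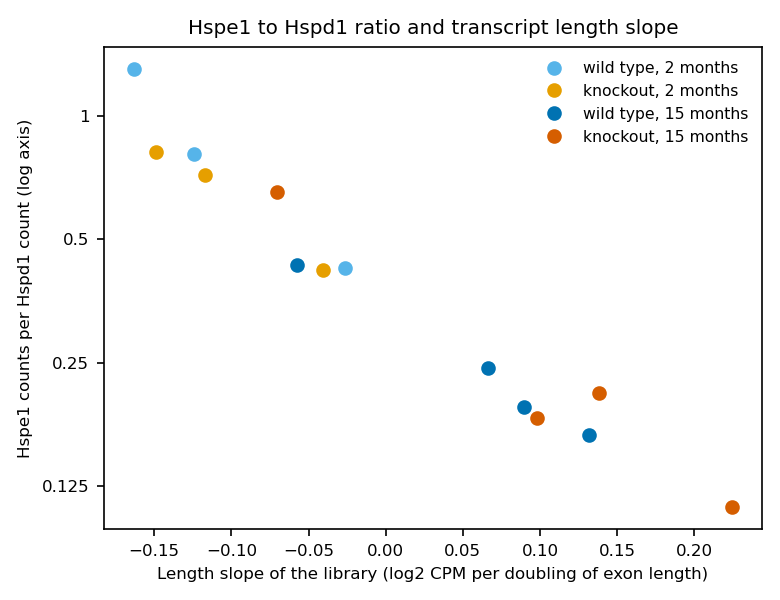
Hspe1 counts per Hspd1 count (log axis) against the length slope of the same library, 1 point per heart, coloured by genotype and age. The ratio falls along the slope within each age, from 1.30 at a slope of -0.163 to 0.111 at 0.224, and the 2 aged hearts with negative slopes lie among the young ones.

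Among the heat-inducible chaperones, the differences between hearts of a group were set side by side. Log2 CPM was centred on the group means, and Hsph1 was compared with 5 other genes over the 14 hearts by every arrangement within groups, with Benjamini-Hochberg adjustment over the 5. Hsph1 and Hsp90aa1 varied together, with Pearson's r = 0.962 and Spearman's rho = 0.956 (exact permutation p = 4.8e-05 for each, the smallest that the 20736 arrangements allow, adjusted exact permutation p = 0.000241). Without aged knockout replicate 1 and aged wild-type replicate 2, which were farthest from the median of Hsph1, r was 0.942 for this pair. These are the aged libraries with a negative length slope, and Hspa9 and Hspd1 were also lowest there within their aged groups. The part of the slope in the relation was not tested, and Hsph1 was not compared in this way with genes outside these 5. For Hspa8 r was 0.486 (rho 0.569), for Hspa1a 0.451 (rho 0.341), for Hspa1b 0.405 (rho 0.433) and for Dnajb1 -0.474 (rho -0.499). None of these 4 passed (adjusted exact permutation p of r from 0.231 to 0.246, of rho from 0.096 to 0.303). Without the same pair of libraries r was 0.684 for Hspa8, -0.0946 for Hspa1a, -0.0406 for Hspa1b and -0.419 for Dnajb1. With single libraries left out r ranged from 0.167 to 0.697 for Hspa1a, from 0.143 to 0.745 for Hspa1b and from 0.395 to 0.685 for Hspa8. Leaving out aged wild-type replicate 3 gave 0.697 for Hspa1a and 0.745 for Hspa1b, and leaving out aged wild-type replicate 2 gave 0.685 for Hspa8, all past the threshold. Hspa1a, Hspa1b and Dnajb1 were each highest in wild-type replicate 1 at 2 months, the library with the highest atrial markers, where the immediate early genes Fos and Egr1 were also highest, at 30.2 and 71.5 CPM, against at most 5.001 and 18.96 CPM elsewhere. What part of the chaperone values in that library goes with these was not tested. Without it the age change of Hspa1b in wild type went from -1.44 to -0.79 and that of Dnajb1 from -0.90 to -0.76.

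**Figure D5:**
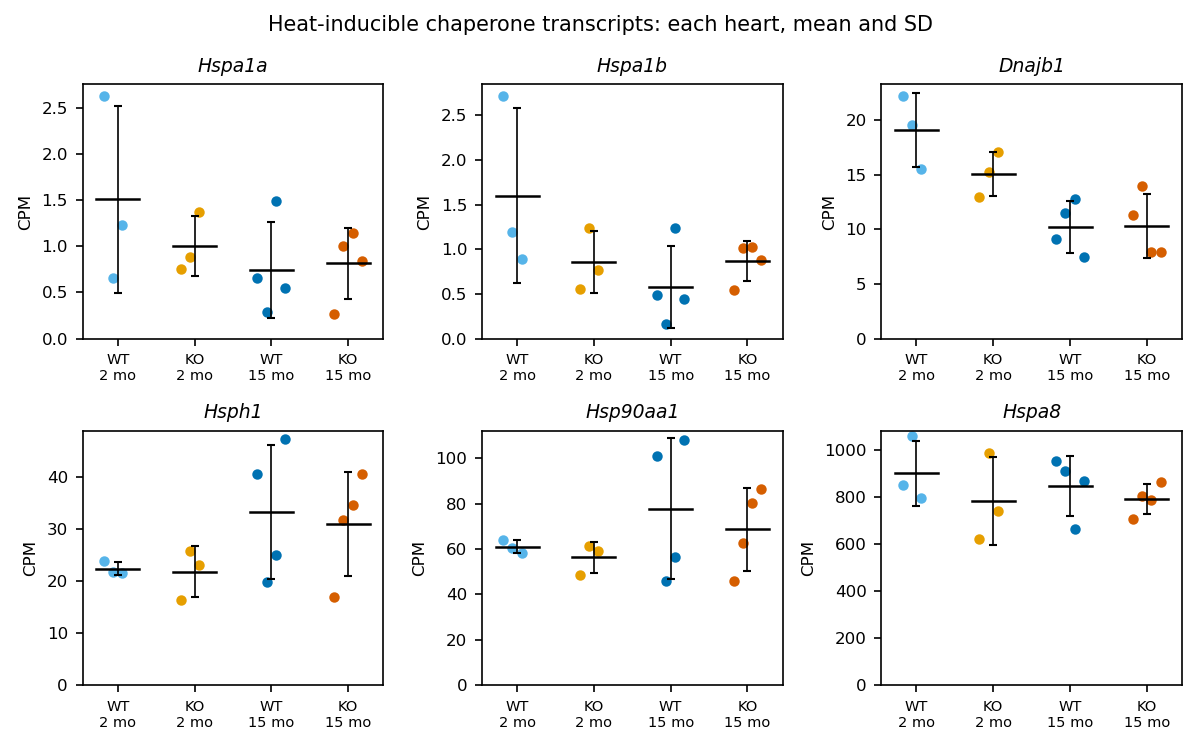
CPM of 5 heat-inducible chaperone transcripts and of the constitutive Hspa8, 1 panel per gene with its own axis from 0; points are hearts, horizontal lines group means and bars SD (n = 3 or 4). Hsph1 and Hsp90aa1 spread in the same order among aged hearts, whereas Hspa1a, Hspa1b and Dnajb1 peak in 1 young wild-type heart.

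The remaining chaperones and co-chaperones were covered by a list of 71 other genes (further Hsp70, J-protein, BAG, prefoldin, Hsp90 partner and mitochondrial protease genes), of which 68 were tested. In the knockout comparisons 0 of 68 passed in edgeR at 2 months, at 15 months, averaged over both ages and for the difference between ages. At an unadjusted p under 0.05 the counts were 0, 2, 0 and 2, against 3.18%, 3.97%, 3.26% and 3.72% of all genes. At 15 months the smallest p-values belonged to Hspbp1, a co-chaperone that binds Hsp70 (-0.46, SE 0.14), and Aarsd1 (-0.95, SE 0.30), and at 2 months to Ppp5c (0.24) and Bag4 (0.26). With age 1 of 68 passed in each genotype, against 1.04% of all genes in wild type and 2.25% in knockout. In both it was Hsbp1l1, a small relative of the HSF1-binding protein HSBP1. Hsbp1l1 stood at 2.75, 5.37 and 2.74 CPM in young wild-type hearts, 5.05, 4.03 and 4.16 in young knockout, 0.861, 1.42, 0.844 and 0.627 in aged wild-type and 0.917, 1.04, 0.452 and 0.421 in aged knockout. All aged hearts were below all young hearts. Over both genotypes and in either direction, the ages did not overlap for 3 of 68, beside 506 of 15528 genes. Its log2 fold change was -1.94 in wild type and -2.64 in knockout (edgeR adjusted p = 0.0233 and 0.00282). Averaged over both genotypes 22 of 68 passed (32.4%, against 23.9% of all genes), 7 higher and 15 lower with age. Those with the smallest p after Hsbp1l1 were Hscb, a J-protein of iron-sulfur cluster assembly (-1.15), Clpb, a mitochondrial disaggregase (0.53), and the prefoldin subunit Vbp1 (-0.72), with edgeR adjusted p = 0.00462, 0.00468 and 0.00502. With the length slope as a covariate 3 of 68 passed, against 1.03% of all genes. Hsbp1l1 was among them at -1.65, while Hscb was at -0.34, Clpb at 0.29 and Vbp1 at -0.23.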

How the data were processed

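The authors deposited 1 table of raw counts per gene and library. Per the submitters' processing notes, reads were trimmed with cutadapt 1.16, aligned to GRCm38 with STAR 2.7.3a and counted with featureCounts 1.6.3. For the annotation release, the strand setting and multi-mapping reads, nothing is given in the sources that were used here. The libraries were made with a stranded total RNA kit after depletion of ribosomal RNA, per the labels' protocols. Of 55487 identifiers 55227 matched GENCODE M21, which supplied symbols, exon lengths and coordinates. Depth was 20218992 to 30404416 counts per library.

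Counts were tested with edgeR 4.0.16 (R 4.3.3): TMM scaling, filterByExpr (minimum count 10, total 15), 1 mean per group over all 14 libraries, robust quasi-likelihood dispersion, Benjamini-Hochberg adjustment over 15528 genes and a threshold of 0.05. An SE is the log2 fold change divided by the square root of F. The procedure was also run on simulated counts with known changes. These held no difference in length slope between libraries, so that run does not bear on the part of the slope in the age calls. Alternatives were other scalings and filters, DESeq2 1.42.0, limma voom (3.58.1), covariates, a replicate block, and each library left out. The 36 genes, the list of other chaperones and the genes named were chosen with earlier results of these data known. Named were genes past the threshold, at most 10 per comparison by smallest p, or the 3 smallest p where none passed, and a set of main chaperones of each class. The averaged age comparison, the pair of libraries left out jointly, the ratio of Hspe1 to Hspd1, and the use of every within-group arrangement in place of 100000 random draws were added after the data were seen.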

Additional observations from a re-analysis of the deposited data

Results flagged for a closer look

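Of 72 groups of 4 hearts tested (36 genes in the 2 groups at 15 months), 4 held a heart whose gap to the nearest of the others exceeded Dixon's critical value, where chance gives about 1 in 20. In aged wild type, replicate 2 was low for Dnaja1 (17.6 CPM, the others 26.02 to 27.4) and for St13 (65.1 CPM). In aged knockout, replicate 1 was low for Cct8 (53.8 CPM) and for Hspa9 (297 CPM, the others 469 to 501). These 2 libraries are the aged ones with a negative length slope, and the part of the slope in these values was not tested.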

How the results depend on the processing

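In the 4 knockout comparisons 0 chaperones were called under every alternative run; over all genes the knockout comparison at each age called 7 genes with DESeq2, against 1. For age in wild type, 0 chaperones became 1 without a filter, against 0.749% of all genes, and 3 with DESeq2, against 7.08%. They became 1 with the length slope as a covariate, against 0.696%, and 2 at an adjusted p of 0.1. Without wild-type replicate 1 at 2 months and aged knockout replicate 1 they became 3, against 13.7%. With 1 library left out they were 0 to 2, against 0.236% to 5.1%. For age in knockout, 0 became 1 without a filter, against 1.53% of all genes, 3 with DESeq2, against 10.4%, and 1 with voom, against 3.11%. They became 3 at 0.1, and 6 without that pair, against 24.9%. With 1 library left out they were 0 to 4, against 0.303% to 22.6%. Averaged over genotypes, 11, against 23.9% of all genes, became 1 with the length slope, against 1.03%. They became 6 with the atrial level as a covariate, against 18.5%, 12 at 0.1, and 13 without that pair, against 39%. With 1 library left out they were 3 to 13, against 9.47% to 35.8%. Shares over all genes at an adjusted p of 0.1 are not given here. Over all genes the averaged comparison called 3712, and 160 with the length slope, 6211 without that pair and 1531 to 5589 with 1 library left out; wild type called 161, with DESeq2 1100, block 101, groups compared only 86, atrial covariate 84 and 38 to 796; knockout called 349, with DESeq2 1622, length slope 55, groups compared only 134, atrial covariate 174 and 49 to 3523. Nothing in the labels ties equal replicate numbers, and same-numbered hearts did not deviate together in every pair (correlations from -0.44 to 0.32), so the numbers were not used as pairs; the highest correlation between genotypes, 0.31, was of replicate 3 at 2 months, the young hearts with high Ciart (20.2 and 16.3 CPM, the others at most 1.197). With a replicate block the knockout comparisons called 0 chaperones and age in wild type 0, against 0.65% of all genes for the latter. In that fit age in knockout called 2 (Hspb2 and Hspb3), against 3.17%, and the averaged comparison 8, against 20.1%. With the length slope the sign turned, averaged, for Hspa4 (-0.0603), Hspa9 (-0.0883), Hspb2 (0.0507), Hspd1 (-0.12) and Hsph1 (-0.17), in knockout for Hspa4 (-0.14), Hspa9 (-0.24), Hspd1 (-0.25), Hspe1 (0.0332) and Hsph1 (-0.27), and in wild type for Hspb2 (0.23) and Hsph1 (-0.0765). Without wild-type replicate 3 at 2 months it turned for Hspb8 with age in wild type (0.0196; -0.468 to 0.0196 over left-out libraries) and, for the averaged knockout effect, for Hspb1 (-0.163 to 0.0023) and Hspb8 (-0.168 to 0.0731). Without centring, r of Hsph1 and Dnajb1 was -0.62 and passed. With 1 library left out, r of Hsph1 ran from 0.167 to 0.697 with Hspa1a, from 0.143 to 0.745 with Hspa1b and from 0.395 to 0.685 with Hspa8. The cause of these shifts was not tested.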

Other observations

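Clpb, the mitochondrial disaggregase, stood at 44.4, 38.1 and 39.7 CPM in young wild-type hearts, 37.3, 45.5 and 39.5 in young knockout, 58.6, 55.6, 68.5 and 52.7 in aged wild-type and 47.7, 65.8, 59.5 and 60.6 in aged knockout, higher in all aged hearts than in all young ones. Counted in either direction, the ages did not overlap for 3 of the 68 other chaperones tested, beside 506 of 15528 genes.

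Prefoldin, which passes unfolded actin and tubulin to TRiC, was singled out after its values were seen. Of the 6 prefoldin genes measured, 5 were lower with age averaged over both genotypes (edgeR, Benjamini-Hochberg adjusted), Pfdn1 at -1.06, Pfdn5 at -0.94, Vbp1 at -0.72, Pfdn4 at -0.65 and Pfdn2 at -0.37 on the log2 scale, and Pfdn6, at -0.30, did not pass, beside 13.1% of all genes that fell. With the length slope as a covariate none of the 6 passed, beside 1.03% of all genes. In that fit Pfdn4, Pfdn5 and Pfdn6 were above 0, at 0.0364, 0.32 and 0.11.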
